A study of Rattus norvegicus with 10 samples.

Results

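The miRNAs miR-7 and miR-375 are described here in the hippocampus of Wistar rats aged 10 weeks. The members were chosen by their mature names, namely miR-7a-5p, miR-7a-1-3p, miR-7a-2-3p, miR-7b and miR-375-3p, and all 5 were found among the 765 rat miRNAs of the deposited table. Small RNA libraries were sequenced from 2 groups of 5, one labelled sham-operated and one labelled 2-VO operation. In the latter both common carotid arteries were occluded, a rat model of chronic low blood flow to the brain. The protocol field names the occlusion for all 10 libraries, and the treatment label separates the groups. The sources used here do not give the time after the operation or any pooling of animals. Whether each library is a separate animal is not stated. A p-value therefore only sets the difference between groups against the spread of these libraries, part of which may be technical. It may not extend to animals.

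MicroRNAs guide Argonaute proteins to messenger RNAs, mainly through the seed, bases 2 to 8 of the mature strand. A hairpin precursor yields a 5p and a 3p strand, of which the guide strand is kept and the passenger strand is mostly degraded. miR-7 is an ancient miRNA of neurosecretory cells, abundant in hypothalamus, pituitary and pancreatic islets. In the brain it is bound by the circular RNA Cdr1as, which carries many miR-7 sites, and its decay is directed by the long noncoding RNA Cyrano. miR-375 is best known from pancreatic islets, where it restrains insulin secretion, and it is also abundant in the pituitary.

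All 5 members had a mature sequence in RefSeq (build GRCr8). They are shown with the seed in capitals, because 2 of them share a seed and differ by a single base.
miR-7a-5p: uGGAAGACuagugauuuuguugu
miR-7b: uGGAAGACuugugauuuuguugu
miR-7a-1-3p: aCAACAAAucacagucugccau
miR-7a-2-3p: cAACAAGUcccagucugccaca
miR-375-3p: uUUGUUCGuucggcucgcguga
Counted from the 5′ end, miR-7b differs from miR-7a-5p by A10U, outside the seed, and 22 of 23 bases are identical. These 2 were the only names in the table with the seed GGAAGAC, among the 690 rows that matched a RefSeq mature sequence. The sources used here do not say how reads with a mismatch were assigned, so the split of reads between miR-7a-5p and miR-7b is uncertain. The passenger strands share 18 of 21 aligned bases when miR-7a-2-3p is set 1 base further along miR-7a-1-3p, with A8G, A11C and U22C counted on miR-7a-1-3p. Their annotated ends start 1 base apart and A8G lies in the seed of miR-7a-1-3p, so the seeds of the passengers differ. The seed of miR-7a-1-3p also occurs in miR-3065-5p, which was listed at 0 in all 10 libraries.

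The hairpins are shown because a single guide here comes with separate passengers. The mature strands are in capitals.
mir-7a-1: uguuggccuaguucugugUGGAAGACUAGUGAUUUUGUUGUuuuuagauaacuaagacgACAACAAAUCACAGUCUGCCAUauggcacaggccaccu
mir-7a-2: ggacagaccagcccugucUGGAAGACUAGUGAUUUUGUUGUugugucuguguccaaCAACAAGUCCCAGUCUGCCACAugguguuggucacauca
Both precursors carry the same 5p strand, so reads of miR-7a-5p cannot be assigned to either hairpin, while each 3p strand names its own. In the RefSeq annotation mir-7a-1 lies within Hnrnpk, the gene of an RNA-binding protein. The hairpin mir-7a-2 lies within a long noncoding RNA, with Det1 and Aen as the protein-coding neighbours, and mir-7b lies within the ribosomal protein pseudogene Rpl35l3. The hairpin mir-375 lies within a protein-coding gene annotated only by a locus number, and it also overlaps Cryba2, a lens crystallin gene. The files use the build rn6, so no coordinates are given.

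Values are RPM, the reads of a miRNA scaled to the same library size in all samples, and the number of reads scaled from ran from 13032805 to 13850400 reads. RPM is not divided by length, and the members are 22 or 23 bases long. The listed miRNAs held 60.3% to 78.0% of those reads, with the lowest share in 2-VO replicate 3. The 6 miRNAs listed for neurons (miR-124-3p, miR-128-3p, miR-9a-5p, miR-138-5p, miR-132-3p and miR-218a-5p) were all present and summed to 171311 to 222620 RPM. Most of that sum was miR-9a-5p, at 109628 to 147717 RPM, while miR-124-3p stood at 1690 to 2950 RPM. Over all 474 miRNAs whose mean reached 1 RPM, 0 passed in the comparison of 2-VO with sham (limma on log2(RPM + 1), Benjamini-Hochberg threshold 0.05, 0%). An unadjusted p under 0.05 was found for 24 (5.06%), 4 higher and 20 lower in 2-VO, a split of 18 and 19 with TMM factors. Limma's voom gave 0 passing and 25 at an unadjusted p under 0.05. Exact permutation tests gave 32 at that level and 0 passing, but the smallest p they allow is 0.0079. Over 474 miRNAs such a p passes adjustment only where many rows reach it, so this last 0 is no separate check.

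The guide miR-7a-5p was among the miRNAs with the most reads in these hippocampal libraries. It ranked 9 of 765 by mean level, between let-7i-5p at 25235 RPM and miR-218a-5p at 14535 RPM, and miR-7b ranked 35. In the sham replicates 1 to 5, miR-7a-5p stood at 21926, 25627.5, 17201, 16825 and 27352 RPM. In 2-VO replicates 3, 5, 6, 7 and 8 it stood at 9928, 26099, 25007, 26184 and 17611 RPM. The groups overlapped, and 2-VO replicate 3 lay below every other library. The means were 21786 ± 4780 RPM in sham and 20966 ± 7124 RPM in 2-VO (SD, n = 5 each). The log2 fold change on the log2(RPM + 1) scale was -0.11 ± 0.24 (SE; limma adjusted p = 0.96), with a 95% interval of -0.62 to 0.39. It turned positive, 0.13, without 2-VO replicate 3. In whole tissue, fewer cells of a type and less RNA per cell cannot be told apart.

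The paralog miR-7b carries the same seed and, in RPM, was also lowest in 2-VO replicate 3. As a share of listed miRNA reads, miR-7b was lowest in sham replicate 3, at 0.286% against 0.348% in 2-VO replicate 3. On that scale miR-7a-5p remained lowest in 2-VO replicate 3, at 1.65% against 2.23% in sham replicate 3. The sham values of miR-7b were 3128, 3694, 2199, 2682 and 3132 RPM, and its 2-VO values 2096, 3865, 3514, 3236 and 2865 RPM. In RPM, sham replicate 3 lay close to 2-VO replicate 3, and the groups overlapped over most of their range. Its log2 fold change was 0.06 ± 0.17 (SE; limma adjusted p = 0.96), with a 95% interval of -0.29 to 0.41, and it was negative without sham replicate 3 (-0.041) or 2-VO replicate 5 (-0.024). miR-7b made up 12.1% ± 1.33 of the summed miR-7a-5p and miR-7b level in sham libraries and 13.5% ± 2.43 after 2-VO (SD, n = 5 each). The share was highest in 2-VO replicate 3, at 17.4% (Wilson 95% interval 17.2% to 17.6%, which covers counting error only). There, in RPM, miR-7a-5p stood further below the other libraries than miR-7b did. Summed, the 2 guides took up 3.44% ± 0.686 of listed miRNA reads in sham libraries (SD, n = 5) and 3.46% ± 1.08 after 2-VO.

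**Figure D1:**
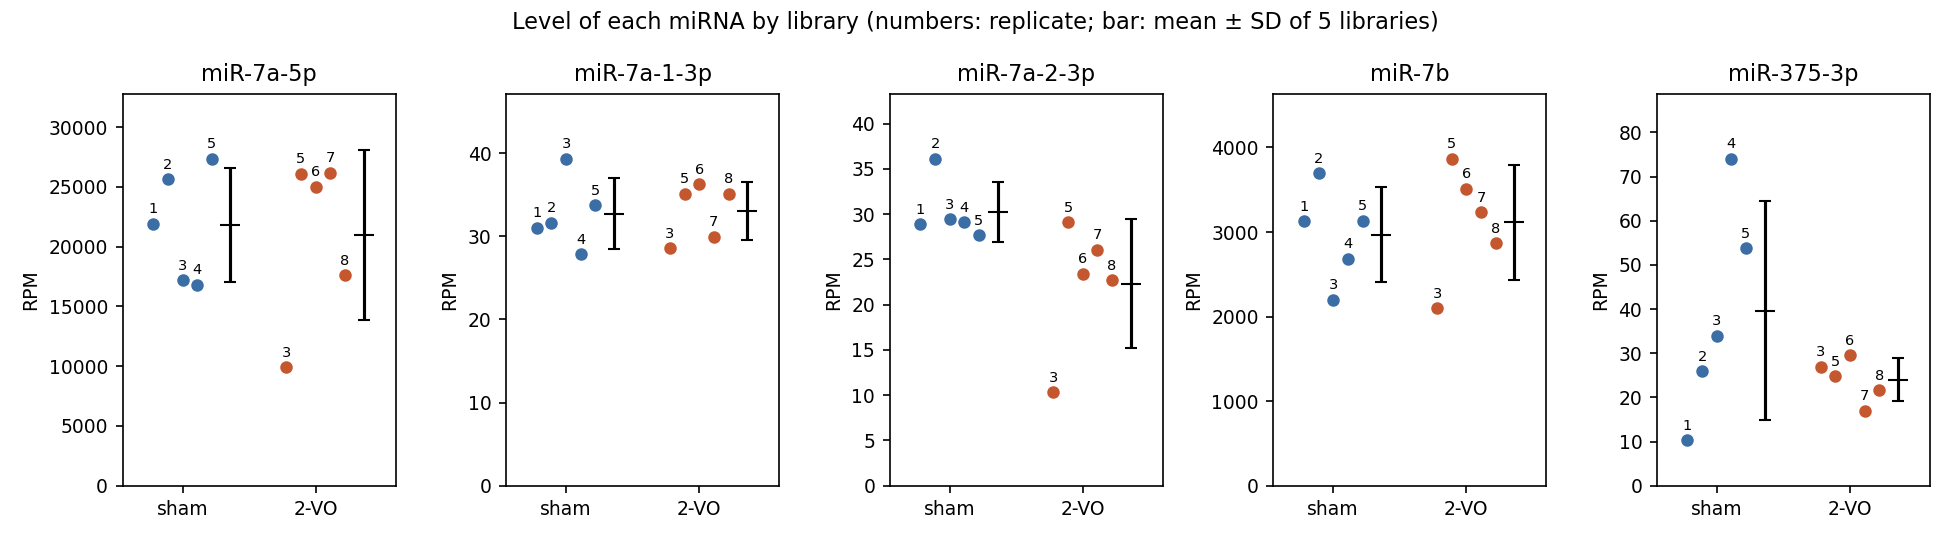
RPM of each of the 5 miRNAs in each library (vertical axes, linear from 0), with sham libraries in blue and 2-VO libraries in orange, numbered by replicate, and the mean ± SD of 5 libraries as a bar. In 2-VO replicate 3, miR-7a-5p (9928 RPM) and miR-7a-2-3p (10.4 RPM) lie below all other libraries, while miR-7a-1-3p (28.6 RPM) does not, and the sham libraries of miR-375-3p run from 10.3 to 74.0 RPM.

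The passenger strands had far fewer reads than the guide. Together they made up 0.299% ± 0.0686 of miR-7a reads in the sham group and 0.283% ± 0.0738 after 2-VO (SD, n = 5 each). miR-7a-1-3p, the passenger of the hairpin within Hnrnpk, stood at 31.0, 31.7, 39.3, 27.8 and 33.8 RPM in sham and at 28.6, 35.1, 36.3, 30.0 and 35.1 RPM in 2-VO libraries. It was counted in 376 to 516 reads, and the groups overlapped almost wholly. On the log2 scale 2-VO differed from sham by 0.015 ± 0.12 (SE; limma adjusted p = 0.98), with a 95% interval of -0.24 to 0.27, and its sign changed with the library left out.

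miR-7a-2-3p, the passenger of the second hairpin, stood at 28.9, 36.1, 29.4, 29.1 and 27.7 RPM in sham libraries. In 2-VO libraries it stood at 10.4, 29.1, 23.4, 26.1 and 22.7 RPM. Of the 5 2-VO libraries, 4 lay below the lowest sham library, and replicate 5 lay within the sham range. Its log2 fold change was -0.49 ± 0.21 (SE; limma adjusted p = 0.76), with a 95% interval of -0.94 to -0.03 that is not adjusted for the number of miRNAs. It was -0.25 without 2-VO replicate 3, the library with 142 reads of this strand against 308 to 487 in the others. Of the 5 members, this was the only one with an unadjusted p under 0.05 (0.037), in a comparison where 4.22% of all miRNAs were lower at that level. Its rank by p was 18 of 474. For no member were the groups separate, which was so for 3 of the 474 miRNAs (0.633%).

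**Figure D2:**
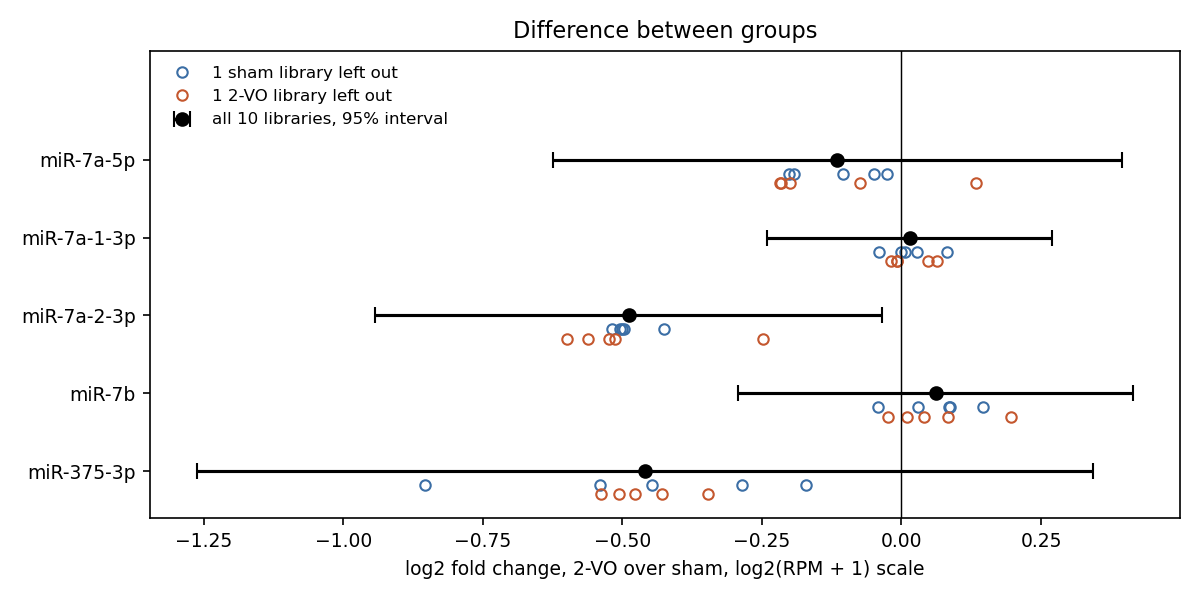
Log2 fold change of 2-VO over sham on the log2(RPM + 1) scale (horizontal axis) for each miRNA, with black points and 95% intervals from limma on all 10 libraries and open circles for the value with 1 sham (blue) or 1 2-VO (orange) library left out. The interval of miR-7a-2-3p (-0.94 to -0.03) leaves out 0 before adjustment, the other 4 hold 0, and miR-375-3p moves from -0.46 to -0.85 without sham replicate 1.

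Ratios within a library do not depend on its scaling, and 5 of them were compared between the groups. The ratio of miR-7a-5p to miR-7a-1-3p was 706, 809, 437, 605 and 810 in sham and 347, 743, 690, 874 and 501 in 2-VO libraries. On the log2 scale this was 9.36 ± 0.371 and 9.23 ± 0.529 (SD, n = 5 each), with p = 0.67 in the exact permutation test, two-sided, and 0.67 adjusted over the 5 ratios. The ratio of miR-7a-5p to miR-7a-2-3p was 759, 710, 585, 579 and 987 in sham and 959, 897, 1068, 1004 and 776 in 2-VO libraries. All 5 2-VO libraries lay above the sham median, and the groups overlapped through sham replicate 5. The log2 means were 9.47 ± 0.317 and 9.87 ± 0.176 (SD, n = 5 each), which differed by 0.40 ± 0.16 (SE) with p = 0.056 in the exact permutation test and 0.14 adjusted. With both passengers summed, the guide stood 340-fold above them in sham and 362-fold in 2-VO libraries (geometric means), with an exact two-sided permutation p of 0.67 (adjusted p = 0.67).

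The passengers were also set against each other, which reads the hairpins apart from their shared guide. The ratio of miR-7a-1-3p to miR-7a-2-3p was 1.07 in sham replicate 1, 0.877 in replicate 2, 1.34 in replicate 3, 0.957 in replicate 4 and 1.22 in replicate 5. In the 2-VO libraries it was 2.76, 1.21, 1.55, 1.15 and 1.55. On the log2 scale the sham mean was 0.11 ± 0.248 and the 2-VO mean 0.64 ± 0.502 (SD, n = 5 each), which differed by 0.53 ± 0.25 (SE) with p = 0.056 in the exact permutation test and 0.14 adjusted. All 5 2-VO libraries lay above the sham median, and the groups overlapped. Without 2-VO replicate 3 the difference was 0.32. In that library miR-7a-2-3p made up 26.6% of the reads of both passengers (142 reads against 392 of miR-7a-1-3p, Wilson 95% interval 23.0% to 30.5%), below the 39.2% to 53.3% of the other 9 libraries. The ratio of miR-7a-5p to miR-7b ran from 6.27 to 8.73 in sham and from 4.74 to 8.09 in 2-VO libraries (log2 difference -0.18 ± 0.15, SE, exact two-sided permutation p = 0.31, adjusted p = 0.52), with a difference of -0.064 without 2-VO replicate 3. The smallest p that this design allows is 0.0079, and 0 of the 5 ratios passed after adjustment.

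**Figure D3:**
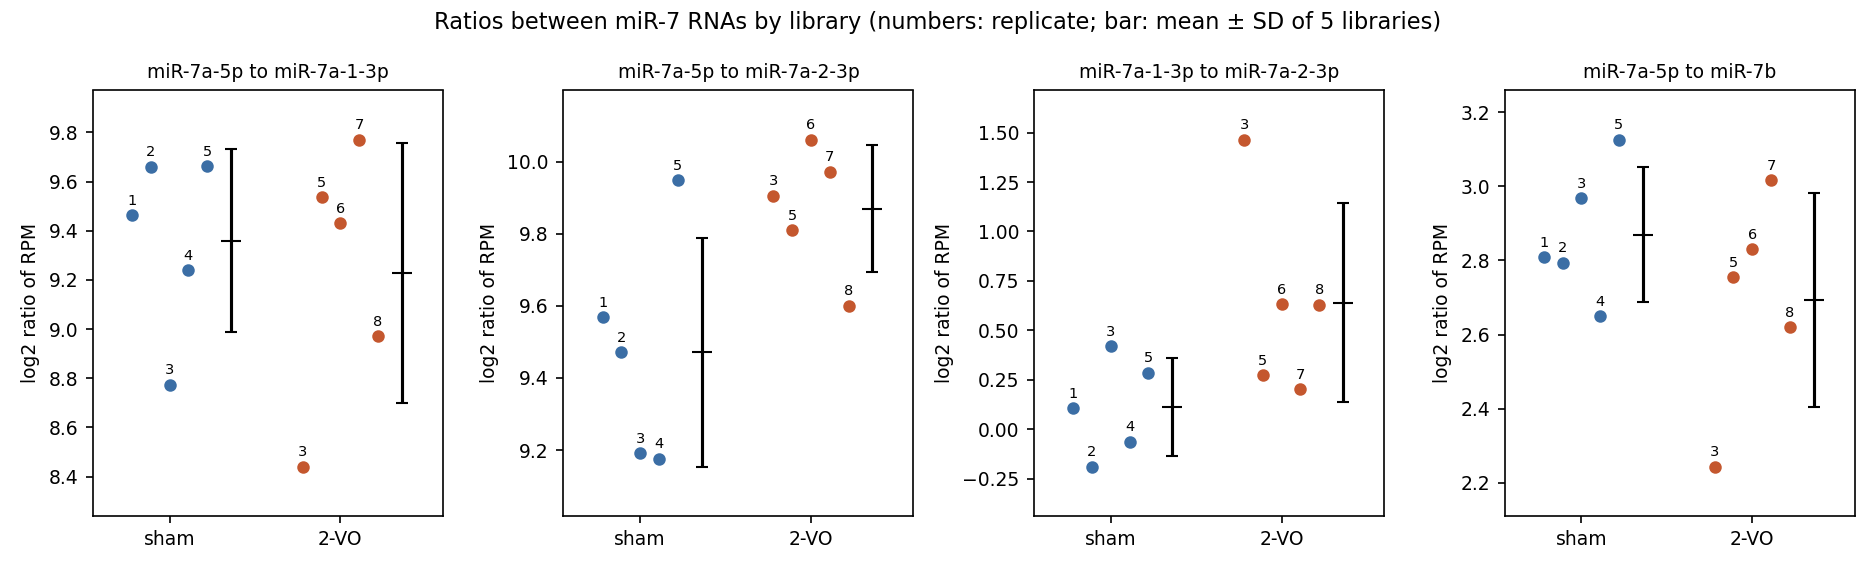
Log2 ratio of RPM values within each library (vertical axes) for 4 pairs of miR-7 RNAs, with sham in blue, 2-VO in orange, replicate numbers at the points, and the mean ± SD of 5 libraries as a bar. The ratio of miR-7a-1-3p to miR-7a-2-3p is highest in 2-VO replicate 3 (1.46 on the log2 scale), and the groups overlap in every panel.

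Among hairpins, miR-7a was strongly one-sided. Hairpins were taken where a 5p and a 3p row of the same name were both kept, and the 2 miR-7a hairpins were added to these. Other guides whose passenger row carries a hairpin number, such as miR-24-3p with miR-24-1-5p, were left out. Hairpins with an arm under a mean of 1 RPM were also left out, among them mir-375, whose 5p arm was listed at 0. Hairpins more one-sided than these may thus be missing, which limits the ranks below. Of the resulting 134 hairpins, 73 had more 5p than 3p, and the median absolute log2 ratio was 3.58. With 1 RPM added to both arms, the mean log2 ratio was 9.61 for mir-7a-2 and 9.25 for mir-7a-1, rank 5 and rank 7 by excess of the 5p arm. Since both ratios use the summed guide of both hairpins, each overstates the one-sidedness of its own hairpin. Of the 134 hairpins, those with a larger 5p excess than both were let-7g, miR-100, miR-99a and let-7i. In limma over all 134 hairpins 0 arm ratios passed between the groups (0%), and 16 (11.9%) had an unadjusted p under 0.05. The mir-7a-2 ratio was among the latter, with a difference of 0.37 ± 0.15 (SE; limma adjusted p = 0.36).

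**Figure D4:**
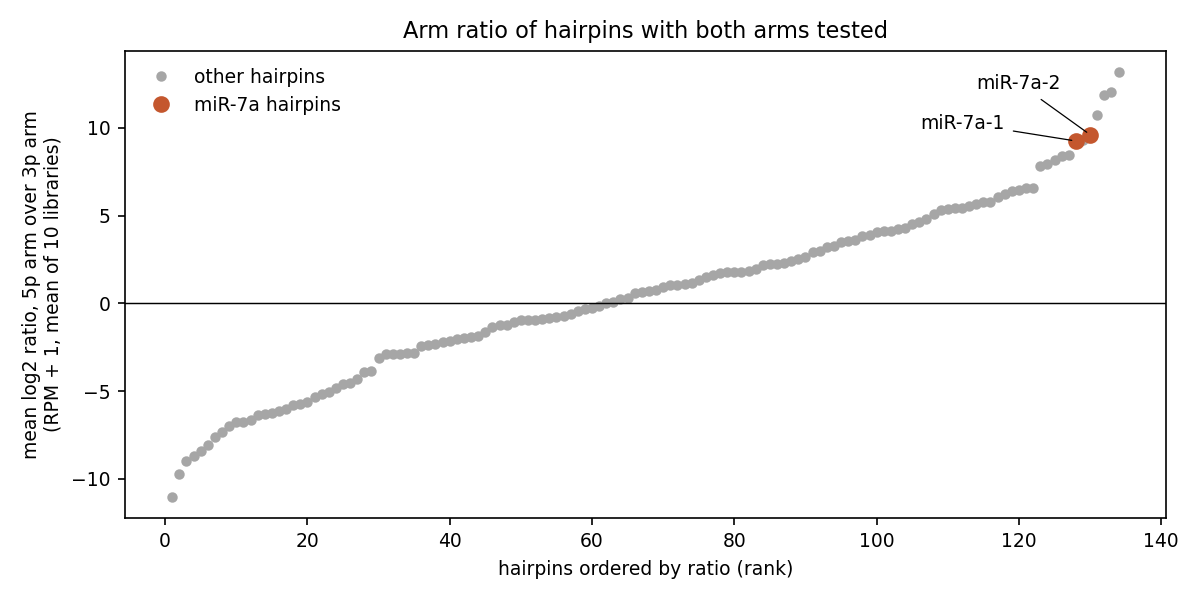
Mean log2 ratio of the 5p over the 3p arm (RPM + 1, mean of 10 libraries, vertical axis) for 134 hairpins ordered by that ratio (horizontal axis). The miR-7a hairpins, in orange, lie at 9.25 and 9.61, near the upper end.

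miR-375-3p was a miRNA of low level, at rank 266 with a mean of 31.8 RPM. In the sham libraries it stood at 10.3, 26.0, 34.0, 74.0 and 53.8 RPM, and in the 2-VO libraries at 26.9, 24.7, 29.6, 17.0 and 21.6 RPM. The sham libraries held both the lowest and the highest value of all 10, so the 2-VO range lay inside the sham range. The lowest library had 143 reads (Wilson 95% interval 8.77 to 12.2 RPM) and the highest 1000 (69.6 to 78.7 RPM), a 7.17-fold range in sham against 1.74-fold after 2-VO. The log2 fold change was -0.46 ± 0.37 (SE; limma adjusted p = 0.86), with a 95% interval of -1.26 to 0.34. It was -0.85 without sham replicate 1 (limma adjusted p = 0.47) and -0.17 without sham replicate 4 (limma adjusted p = 0.99), which are also the ends of the range of its adjusted p over 22 other settings. The other arm, miR-375-5p, was listed at 0 in all 10 libraries. A value of 0 stands for fewer than 10 reads, so miR-375-3p was at least 14.3-fold higher in each library, and at least 100-fold higher in sham replicate 4, against that floor per library.

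The spread between libraries set these miRNAs apart from each other. For the 339 miRNAs whose mean reached 10 RPM, the median SD of log2(RPM + 1) was 0.166 in sham and 0.217 in 2-VO libraries. miR-375-3p had an SD of 1.05 in sham, the second highest after miR-10a-5p, and 0.298 in 2-VO libraries, rank 73. miR-7a-5p had an SD of 0.322 in sham (rank 21) and 0.603 in 2-VO (rank 5), and miR-7b of 0.282 and 0.342. miR-7a-2-3p had an SD of 0.146 in sham, below the median, and 0.556 in 2-VO, rank 6. miR-7a-1-3p, the other passenger, had 0.178 and 0.151, the lowest 2-VO SD of the 5, or 0.111 and 0.0466 when scaled to the listed miRNAs. With that scaling the SDs of the other 4 lay between 0.149 and 1.06. Single libraries carried much of this spread. Without 2-VO replicate 3 the 2-VO SD was 0.276 for miR-7a-5p, 0.157 for miR-7a-2-3p and 0.183 for miR-7b. The sham SD was 0.658 for miR-375-3p without sham replicate 1, 0.0366 for miR-7a-2-3p without sham replicate 2, and 0.112 for miR-7a-1-3p without sham replicate 3. For miR-375-3p the 2-VO SD was 0.185 without 2-VO replicate 7. No test of these spreads was made.

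**Figure D5:**
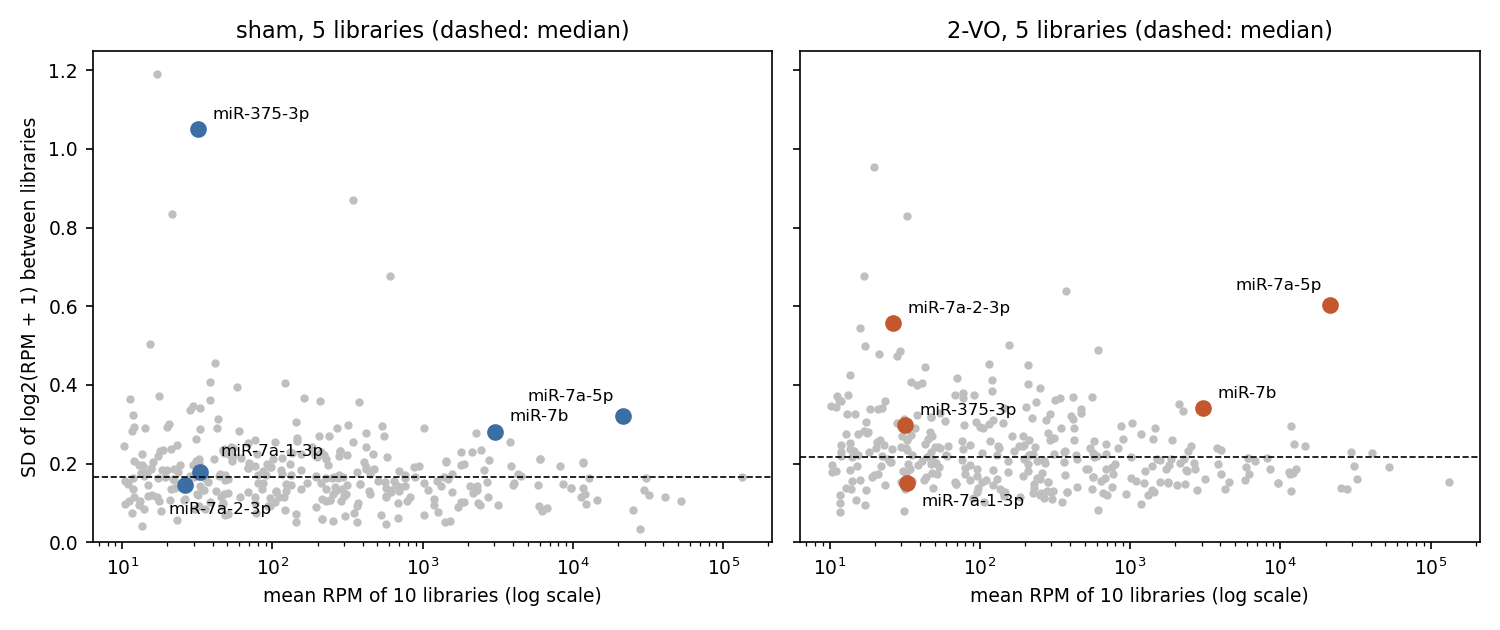
SD of log2(RPM + 1) between the 5 libraries of a group (vertical axis) against mean RPM of 10 libraries (horizontal axis, log scale) for 339 miRNAs in grey, with the 5 named miRNAs in colour and the median SD as a dashed line. miR-375-3p (1.05) stands high in sham, and miR-7a-5p (0.603) and miR-7a-2-3p (0.556) stand high in 2-VO.

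The miRNAs whose levels across the 10 libraries were most like those of the members are given as a description, since all values of a library share its scaling and make-up. For miR-7a-5p they were miR-145-5p, a miRNA of smooth muscle (Pearson r = 0.91, or 0.84 without 2-VO replicate 3), miR-541-5p (0.90 and 0.89) and miR-7b (0.87 and 0.82), among 338 miRNAs of at least 10 RPM. For miR-7a-5p the passengers were less alike, with r = 0.77 for miR-7a-2-3p and 0.32 for miR-7a-1-3p, or 0.15 and -0.04 without 2-VO replicate 3. For miR-7a-2-3p the nearest were miR-664-3p (0.91), miR-421-3p (0.88) and miR-1224 (0.88), at 0.64 to 0.65 without that library. For miR-375-3p the nearest were miR-34b-3p (0.93), miR-34c-5p (0.84) and miR-338-5p (0.81). miR-34b-3p, from a transcript known from ciliated cells, stood at 9.17, 13.3, 16.1, 20.9 and 23.4 RPM in sham and at 11.7 to 15.7 RPM in 2-VO libraries, so it too was lowest in sham replicate 1. miR-375-3p and miR-7a-5p did not share a pattern (r = -0.12).

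Markers of several tissues and cell types, among them endocrine glands and pancreas, were listed beside these values. Of 8 miRNAs of epithelium and endocrine glands (miR-141-3p, miR-200a-3p, miR-200b-3p, miR-200c-3p, miR-429, miR-182, miR-183-5p and miR-96-5p), miR-141-3p was listed at 0 throughout, and the list summed to 10.3 to 23.8 RPM in sham and 12.0 to 82.8 RPM in 2-VO libraries. The 82.8 RPM belonged to 2-VO replicate 3, in which miR-375-3p stood at 26.9 RPM and miR-7a-5p was lowest, and the other 2-VO libraries reached 29.6 RPM. Of its 5 tested members 5 had a log2 fold change above 0 (median 0.55) and 0 passed. Of 3 pancreas miRNAs (miR-216a-5p, miR-216b-5p and miR-217-5p), miR-216a-5p was listed at 0 throughout, and the list summed to 1.85 to 5.83 RPM in sham and 1.88 to 3.54 RPM in 2-VO libraries, with 1.85 RPM in sham replicate 4, where miR-375-3p was highest. The single tested one of these 3 had a log2 fold change of -0.18. The choroid plexus list (miR-204-5p, miR-211-5p, miR-448-3p and miR-1298) summed to 786 to 1942 RPM in sham, highest in replicate 5, and 610 to 794 RPM in 2-VO libraries, with 4 of 4 below 0 (median -0.57). Sham replicate 1, lowest for miR-375-3p, was the lowest sham library on the choroid plexus, epithelial and red blood cell lists. Sham replicate 4, highest for miR-375-3p, was the next lowest sham library on the choroid plexus list (873 RPM). It was the highest sham library on the red blood cell list (155 RPM) and the lowest on the neuronal list (181836 RPM). On the epithelial list it stood at 18.9 RPM, below only replicate 5 within the sham group. The hindbrain list (miR-10a-5p, miR-10b-5p and miR-196a-5p, the last at 0 throughout) summed to 4.80 to 27.9 and 12.0 to 33.9 RPM, with 2 of 2 tested above 0 (median 0.73). The red blood cell list (miR-451-5p, miR-144-3p and miR-486) summed to 130 to 155 and 84.1 to 215 RPM, with 2 of 3 above 0 (median 0.17), and was lowest in 2-VO replicate 3. In RPM the neuronal list was also lowest in 2-VO replicate 3 (171311 RPM), the library with the lowest share of reads on listed miRNAs (60.3%). There miR-9a-5p, miR-138-5p and miR-218a-5p lay below all other libraries, while miR-124-3p, miR-128-3p and miR-132-3p did not. The neuronal list had 2 of 6 above 0 (median -0.014). For comparison, over all 474 miRNAs 179 lay above 0 (median -0.05). None of the members of these lists passed (limma), and the part of other tissue or cells in the levels of miR-7 and miR-375 was not tested.

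In the miR-671 hairpin the 5p strand pairs with a site among the miR-7 sites of Cdr1as, which leads to cutting of that circular RNA. The row miR-671 names no arm, and its mature sequence has the seed CCGGUUC, that of the 3p strand. It was read beside miR-7a-5p and miR-7b as a product of that hairpin, not as the strand that pairs with Cdr1as. It stood at 52.1, 58.4, 52.9, 51.3 and 53.9 RPM in sham and at 43.6, 43.5, 61.3, 39.1 and 48.8 RPM in 2-VO libraries. Of the 5 2-VO libraries, 4 lay below the lowest sham library and replicate 6 above the highest. The log2 fold change was -0.20 ± 0.12 (SE; limma adjusted p = 0.80). Of these 3 miRNAs 1 had a log2 fold change above 0 and 0 passed (median -0.11, against -0.05 over all miRNAs tested).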

How the data were processed

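Small RNA was measured in 10 hippocampal libraries, 5 sham-operated and 5 2-VO, grouped by the treatment label and numbered by title. The deposited values are RPM per mature miRNA, per the file headers. Per the submitters' processing notes, bcl2fastq, BWA and rn6 were used. The sources used here do not give the annotation, how reads matching several miRNAs were counted, or which reads form the divisor. All 4962 values above 0 were whole reads within 0.01 reads at 1 divisor per library, with a smallest listed value of 10 reads, and PCR copies are counted as reads.

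The members and lists were chosen with earlier results of these data known. From RPM, log2(RPM + 1) was tested for 474 miRNAs with limma 3.58.1 in R 4.3.3 (trend, two-sided, Benjamini-Hochberg, threshold 0.05). The test was checked on simulated data. Ratios were tested over all 252 assignments. Named were the members, the 3 rows most like each of 3 members, neighbours by level, rows sharing a seed and the marker lists. TMM factors were computed by a script. The planned edgeR count test was not run, since values under 10 reads are listed at 0, and limma's voom took its place as an alternative. Mature sequences come from RefSeq (GRCr8). The smallest chi-square between libraries of a group was 90.3 per degree of freedom, so no library was counted as a duplicate.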

Additional observations from a re-analysis of the deposited data

Results flagged for a closer look

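In 2 of 20 groups of 5 values checked (5 miRNA levels on the log2 scale and 5 log2 ratios in each group), 1 library lay far from the rest, with a gap to the nearest library over 0.71 of the range. Chance gives about 1 such group. Both concern miR-7a-2-3p. In sham it was highest in replicate 2, at 36.1 RPM, with the others at 27.7 to 29.4 RPM. In 2-VO it was lowest in replicate 3, at 10.4 RPM, with the others at 22.7 to 29.1 RPM. That library also had the lowest miR-7a-5p and the lowest share of reads on listed miRNAs. Their part in the value was not tested.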

How the results depend on the processing

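Of 271 values under other settings, 239 stayed the same. That meant the same direction and side of the threshold or, for counts and SDs, a value within 1.5 times the main one. No member or ratio passed in the main settings, so the side of the threshold had little room to change. The other filters and the exact permutation test leave the log2 fold change of a member as it was. The count of 239 is therefore no measure of robustness. The count of miRNAs passing was 0 in each setting except with the replicate block, where 8 passed, 0 of them members and 5 from the marker lists (miR-200a-3p, miR-200b-3p, miR-10a-5p, miR-448-3p and miR-1298). Deviations of same-numbered libraries had a correlation of -0.058 (number 3) and -0.18 (number 5), so the block rests on 2 shared numbers that do not pair the libraries. Leaving out 1 library gave a count of 0 throughout. The log2 fold change of miR-7a-5p ran from -0.22 to 0.13 when 1 library was left out and was 0.019 with array weights, and that of miR-7a-1-3p ran from -0.039 to 0.082 and was -0.20 with the replicate block. The block also gave -0.43 for miR-7a-5p, -0.68 for miR-7a-2-3p, -0.71 for miR-375-3p and 0.12 for miR-7b (limma adjusted p from 0.89 to 0.997), and quantile normalization gave -0.24 for miR-7a-5p. That of miR-7a-1-3p was below 0 without sham replicate 1 (-0.0012) or 4 (-0.039) and without 2-VO replicate 5 (-0.0083), 6 (-0.019) or 8 (-0.0082). For miR-7b the range was -0.041 to 0.20, for miR-7a-2-3p -0.60 to -0.25 and for miR-375-3p -0.85 to -0.17. The difference of the log2 ratio of miR-7a-5p to miR-7a-1-3p ran from -0.28 to 0.067, above 0 without 2-VO replicate 3, and that to both passengers from -0.023 (without sham replicate 3) to 0.21, at -0.0043 without 2-VO replicate 7. With 1 library left out the SD ran from 0.276 to 0.688 for miR-7a-5p in 2-VO, from 0.112 to 0.204 for miR-7a-1-3p in sham, from 0.0366 to 0.167 and from 0.157 to 0.639 for miR-7a-2-3p in sham and 2-VO, from 0.183 to 0.39 for miR-7b in 2-VO, and from 0.658 to 1.21 and from 0.185 to 0.341 for miR-375-3p in sham and 2-VO. Scaled to the listed miRNAs it was 0.111 (sham) and 0.0466 (2-VO) for miR-7a-1-3p. The cause of these changes was not tested. Number of miRNAs at an unadjusted p under 0.05: 37 with TMM or median-of-ratios factors, 39 with quantile normalization, 43 with array weights, and 12 (without sham replicate 2) to 42 (without 2-VO replicate 6 or 8) with 1 library left out, against 24. Depth limits the passengers and miR-375-3p, counted in 142 to 1000 reads, more than the guides.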
